A study of Mus musculus with 4 samples.

Results

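The 44 collagen genes are the genes among the 21862 listed once in each library whose symbol is Col, a type number, the letter a and a chain number. They were grouped by the assembly that their chains form, into 11 fibrillar, 8 basement membrane and 25 other collagens. Their mRNA was measured by RNA-seq in N31 NPCs, a mouse neural progenitor line obtained by differentiating iPSCs that carry reprogramming factors (OKMS) under a Dox-inducible promoter. The NPCs were kept without EGF and bFGF on a soft (0.5 kPa) or a stiff (12 kPa) matrix coated with type I collagen. The same was done with N31 NPCs that received, by retrovirus, a short hairpin RNA against the transcription factor Srf (shSrf#1, driven by an H1 promoter), and these are called shSrf NPCs here. By the methods, infected cells were selected with puromycin. All cells come from 1 line and 1 hairpin, and the methods do not say whether the control NPCs carried a control vector or were selected. Infection and selection can therefore not be told apart from the hairpin. There is 1 library for each of the 4 conditions, which leaves the differences below without replicates and without p-values.

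Collagens are secreted proteins of the extracellular matrix in which 3 chains wind into a triple helix. Fibrillar collagens pack into the fibrils that carry tension, type IV collagen forms the sheet-like network of basement membranes, and the other types coat fibrils, form beaded filaments or anchor epithelia. In the central nervous system, fibrillar collagen is mostly found in the meninges and around vessels, and type IV collagen in the vascular basement membrane. Srf acts with the actin-regulated cofactor Mkl1 on genes of the cytoskeleton and of matrix adhesion.

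The values are FPKM, reads scaled to transcript length and to the mapped reads of the library, so levels of different genes are compared here per length. By an estimate from low FPKM values the control libraries held 29100000 and 24100000 reads (0.5 and 12 kPa) and the shSrf libraries 45000000 and 62300000. Both shSrf libraries were thus deeper than both control libraries, which matters where read numbers are set side by side. For a transcript of 6000 nucleotides 3 reads amount to an FPKM of 0.0083 to 0.0214. The targeted gene, Srf, was at 34.4 and 35.6 in the control libraries (0.5 and 12 kPa) and at 16.2 and 17.4 in the shSrf libraries. Of 12 NPC markers, 6 or 7 were above an FPKM of 2 in each library, with Vim (1481 to 2396), Nes (15.5 to 51.6), Sox2 (4.29 to 20.4) and Pax6 (2.62 to 6.78) among them. Sox1, Olig2 and Hes5 were listed at 0 in all libraries, and Fabp7 was listed at 0 in both control libraries. Of 12 fibroblast or mesenchymal markers, 11 or 12 were above 2 in each library, with a summed FPKM of 1392 to 1727, and Prrx1 stood between 203 and 222. The median of these mesenchymal markers was 14.5 and 15.3 in the control libraries and 24.5 and 24.8 in the shSrf libraries. Their summed FPKM went the other way, with 1727 and 1444 in the control libraries and 1669 and 1392 in the shSrf libraries. Of 8 endothelial markers, none was above 2 in the control libraries and 1 in the shSrf libraries, and Tie1 was listed at 0 throughout. The part of such cells in the collagen levels was not tested, and in bulk RNA fewer cells of a type and less RNA per cell cannot be told apart.

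The collagens of these cells were mainly fibrillar. In total, 24 of the 44 genes were above an FPKM of 2 in at least 1 library (7 of 11 fibrillar, 5 of 8 basement membrane and 12 of 25 other collagens), and 20 were above it in all 4 libraries. The summed FPKM of all collagens was 4089 in control NPCs at 0.5 kPa and 3734 at 12 kPa, and 3293 and 3424 in shSrf NPCs. Fibrillar collagens made up 65.2% and 67.3% of that sum in the control libraries and 78.0% and 77.6% in the shSrf libraries. The share of basement membrane collagens was 22.9% and 20.2% in control NPCs and 11.2% and 10.8% in shSrf NPCs, while that of the other collagens stayed between 10.9% and 12.5%.

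**Figure D1:**
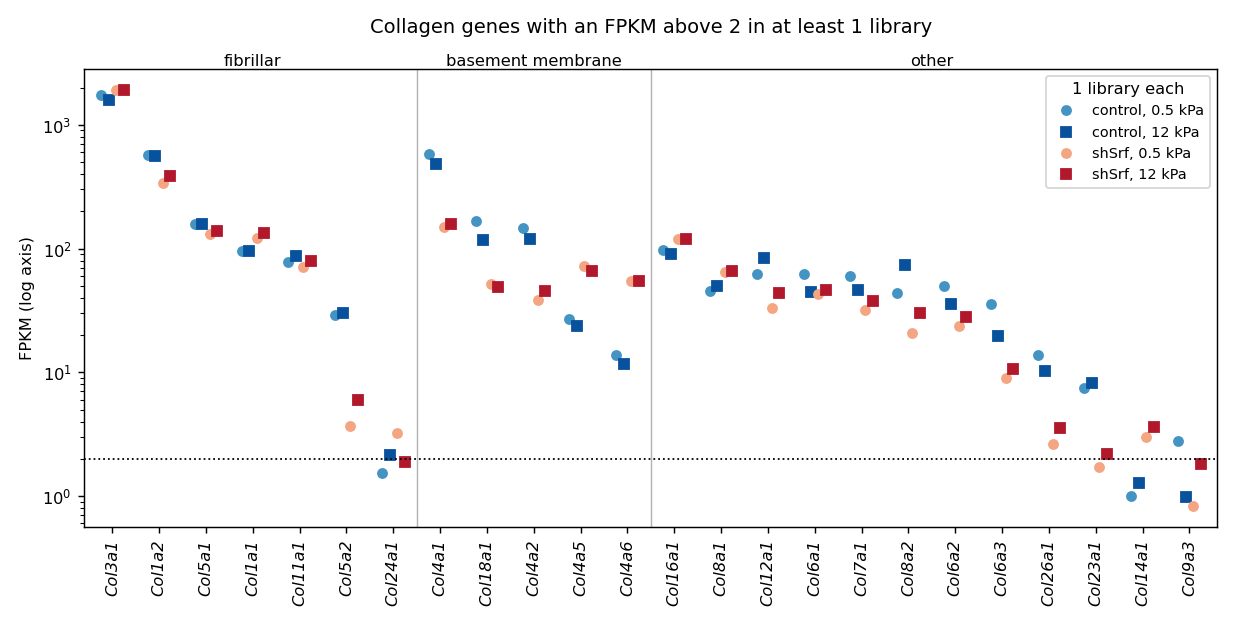
FPKM (log axis) of the 24 collagen genes above 2 in at least 1 library, ordered within each group by level, with 1 point for each library and the minimum of 2 as a dotted line. Col3a1 lies highest, between 1584 and 1908, and the shSrf points of Col4a1, Col4a2 and Col18a1 lie below the control points while those of Col4a5 and Col4a6 lie above them.

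Col3a1, the chain of type III collagen, had the highest level of all collagens in each library. Its FPKM was 1730 in control NPCs on the soft and 1584 on the stiff matrix, and 1897 and 1908 in shSrf NPCs. It ranked between 20 and 29 among all genes. Col1a2, a chain of type I collagen, followed among the fibrillar genes with 570, 555, 338 and 388 in the same order of libraries. Its partner Col1a1, which contributes 2 of the 3 chains of the type I helix, was lower per length than Col1a2 in each library, at 96.0, 95.4, 123 and 132. The ratio of Col1a1 to Col1a2 was 0.168 and 0.172 in control NPCs and 0.363 and 0.342 in shSrf NPCs. Col5a1 and Col11a1, chains of the minor fibrillar collagens that start and limit fibrils, had 131 to 158 and 70.4 to 86.6. Of the 11 fibrillar genes, Col2a1, the chain of cartilage collagen, and Col5a3, Col11a2 and Col27a1 did not pass 2 in any library, and their highest values were 1.14, 1.43, 0.80 and 1.21.

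Expression in shSrf NPCs was then compared with control NPCs on each matrix. Of the 20 collagens above the minimum of 2 in all libraries, 8 were past 2-fold lower in shSrf NPCs at 0.5 kPa, against 2.86% of all 10489 genes above the minimum, and 2 were past 2-fold higher, against 2.45%. At 12 kPa, 6 were lower, against 2.22% of all genes, and 2 were higher, against 2.74%. The same 6 genes (Col5a2, Col4a1, Col4a2, Col18a1, Col8a2 and Col26a1) were lower and the same 2 (Col4a5 and Col4a6) higher at both stiffnesses, where 1.71% of all genes were lower and 1.74% higher. The median log2 ratio of the 20 collagens was -0.84 at 0.5 kPa and -0.33 at 12 kPa, beside 0.01 and 0.01 for all genes. It was -0.21 and -0.14 for the fibrillar, -1.70 and -1.27 for the basement membrane and -0.93 and -0.35 for the other collagens. The SE of these ratios from read counting alone lay between 0.0035 for Col3a1 and 0.094 for Col26a1, and it does not cover variation between cultures.

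**Figure D2:**
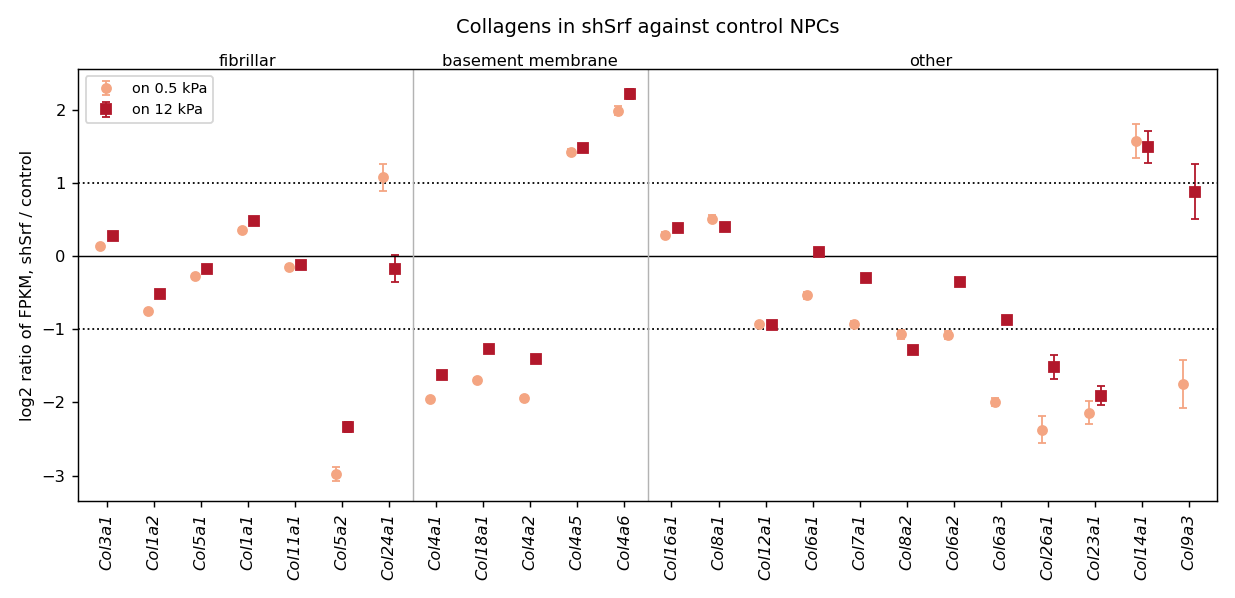
Log2 ratio of FPKM in shSrf against control NPCs for the 24 collagen genes above an FPKM of 2 in at least 1 library, on 0.5 kPa and on 12 kPa (1 library against 1 library each). Bars are 95% intervals from read counting only, dotted lines mark 2-fold, and the 6 genes below the lower line at both stiffnesses with all libraries above 2 stand beside Col4a5 and Col4a6 above the upper one. Col14a1 lies above the upper line and Col23a1 below the lower one at both stiffnesses as well, but neither was above 2 in all libraries.

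The basement membrane genes divided in direction. Col4a1 and Col4a2 encode the chains of the most widespread type IV network, and Col4a5 and Col4a6 encode chains of a network found in fewer basement membranes. The genes of each pair lie head to head, Col4a1 and Col4a2 on chromosome 8 with spans that overlap by 85 bases in the RefSeq annotation, and Col4a6 and Col4a5 on chromosome X with 1274 bases between them. The sequences of their shared or facing starts are shown because the members of each pair moved together. They are from RefSeq on GRCm38, the build of the files, written in lower case with matches to the letters CCAAT or GGGCGG, on either strand, in capitals. The first covers 30 bases of the + strand at chr8:11312800-11312829. It was placed around the GGGCGG shared by Col4a1 and Col4a2 and includes the start of Col4a2. The second is the 201 bases before the annotated span of Col4a5 on the + strand at chrX:141475169-141475369. The third is the 231 bases before that of Col4a6 on the - strand at chrX:141474096-141474326. Further matches in the promoter windows described below lie outside these stretches, among them CCAAT for Col4a1 and Col4a2 and GGGCGG for Col4a5 and Col4a6.
Col4a1 and Col4a2: tcggcagtgcgcGGGCGGcgtctccaaggg
Col4a5: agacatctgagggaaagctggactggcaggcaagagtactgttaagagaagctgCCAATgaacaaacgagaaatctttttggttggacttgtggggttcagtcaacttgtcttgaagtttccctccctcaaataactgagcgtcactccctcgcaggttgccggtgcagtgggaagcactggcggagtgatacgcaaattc
Col4a6: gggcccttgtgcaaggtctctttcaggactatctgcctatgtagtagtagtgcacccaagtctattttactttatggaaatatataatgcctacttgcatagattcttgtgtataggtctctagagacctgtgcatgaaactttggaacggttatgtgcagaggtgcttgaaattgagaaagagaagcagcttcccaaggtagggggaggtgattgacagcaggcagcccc

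Col4a1 was at 580 and 481 FPKM in control NPCs (0.5 and 12 kPa) and at 150 and 157 in shSrf NPCs, which is 3.88-fold and 3.07-fold lower. Col4a2 had 146 and 120 in control NPCs and 38.1 and 45.0 in shSrf NPCs, 3.83-fold and 2.66-fold lower. The ratio of Col4a1 to Col4a2 was 3.97, 4.02, 3.93 and 3.48 across the 4 libraries. The kit kept the strand of the RNA, but the strand setting of the counting is not given in the sources used here, so reads within the overlap of the 2 genes may have been assigned to either.

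The X-linked pair went the other way. Col4a5 had 27.1 and 23.6 in control NPCs and 72.7 and 65.6 in shSrf NPCs, 2.68-fold and 2.78-fold higher. Col4a6 had 13.8 and 11.7 in control NPCs and 54.9 and 54.2 in shSrf NPCs, 3.97-fold and 4.65-fold higher. Their ratio, Col4a5 to Col4a6, was 1.96 and 2.02 in control NPCs and 1.32 and 1.21 in shSrf NPCs. Col4a3 and Col4a4, the remaining pair of type IV genes, whose protein is best known from the glomerular basement membrane, did not pass 0.256 in any library. Their annotated spans overlap by 114 bases. At these low levels the log2 ratios, shSrf against control, were 0.98 and -0.77 for Col4a3 and 0.62 and 0.67 for Col4a4. Over all 6 type IV genes the summed FPKM was 767 and 637 in control NPCs and 316 and 322 in shSrf NPCs, and the share of Col4a5 and Col4a6 in it was 5.34% and 5.53% in control NPCs against 40.4% and 37.2% in shSrf NPCs. In control NPCs type IV mRNA was mostly that of Col4a1 and Col4a2, and in shSrf NPCs a mixture of both pairs.

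**Figure D3:**
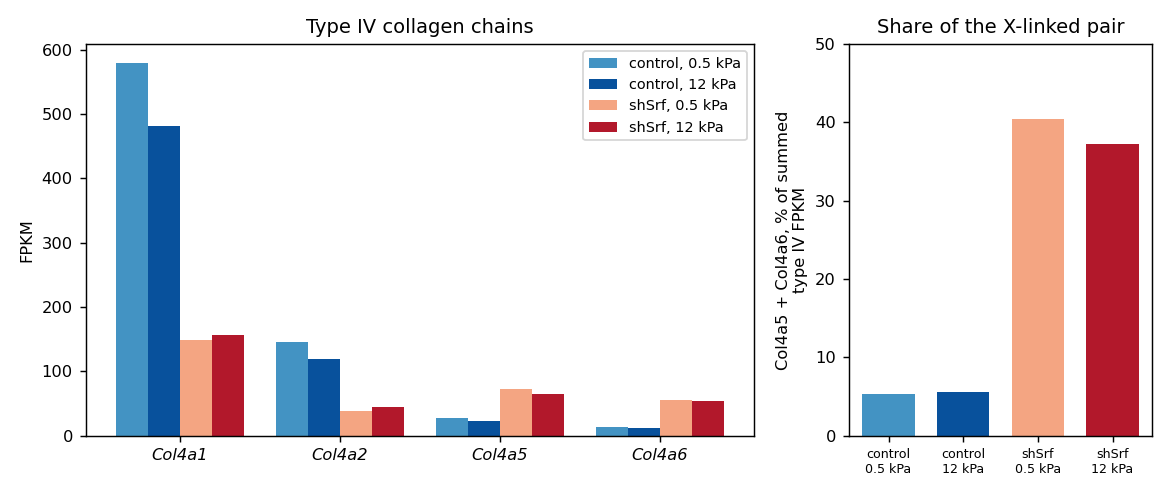
Left, FPKM of the 4 type IV chain genes above the minimum, with 1 bar for each library. Right, the summed FPKM of Col4a5 and Col4a6 as a percentage of that of all 6 type IV genes, which is 5.34% and 5.53% in the control libraries and 40.4% and 37.2% in the shSrf libraries.

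Col18a1, a multiplexin of basement membranes whose end fragment is endostatin, had 167 and 117 in control NPCs and 51.4 and 48.7 in shSrf NPCs, log2 ratios of -1.70 and -1.27. Its relative Col15a1 stayed at or below 1.45 in all libraries. Of the 5 basement membrane collagens above the minimum, 3 were therefore past 2-fold lower and 2 past 2-fold higher at each stiffness.

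Of the 6 fibrillar collagens above the minimum, Col5a2 alone was past 2-fold. Col5a2, a chain of type V collagen, had 29.0 and 29.9 in control NPCs and 3.66 and 5.92 in shSrf NPCs. The log2 ratios of -2.98 and -2.34 were the lowest of the 20 collagens at both stiffnesses. Col5a1, which forms type V collagen together with Col5a2, had ratios of -0.28 and -0.17. Col5a2 lies 24624 bases from Col3a1 on chromosome 1, and Col3a1 had ratios of 0.13 and 0.27. Neighbouring genes thus differed here. In the same comparison Col4a1 moved with Col4a2 and Col4a5 with Col4a6, the type IV pairs above the minimum. Col1a2 had ratios of -0.75 and -0.52 and Col1a1 of 0.35 and 0.47, and the 2 chains of type I collagen therefore differed in sign at both stiffnesses without passing 2-fold. Col11a1 stayed within -0.15 and -0.12. Col24a1, another minor fibrillar chain, had 1.54 and 2.14 in control NPCs and 3.24 and 1.898 in shSrf NPCs, below the minimum in 2 of the 4 libraries, with log2 ratios of 1.08 and -0.17.

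Type VI collagen, which forms beaded microfilaments from Col6a1, Col6a2 and Col6a3, was higher in control NPCs at 0.5 kPa than in the other 3 libraries. Col6a3 had 35.8 there, 19.6 in control NPCs at 12 kPa, and 9.01 and 10.7 in shSrf NPCs. Its log2 ratio, shSrf against control, was -1.99 at 0.5 kPa and -0.87 at 12 kPa. Col6a2 had 50.1, 35.4, 23.8 and 27.7 in the same order, with ratios of -1.08 and -0.35. Col6a1 had 62.7, 44.4, 43.3 and 46.1, with ratios of -0.54 and 0.05, so that only the library of control NPCs on the soft matrix stood apart. Thus 2 of these chains were past 2-fold lower at 0.5 kPa and none at 12 kPa. Col6a1 and Col6a2 lie 85161 bases apart on chromosome 10, and their ratio was 1.25 in both control libraries and 1.82 and 1.66 in the shSrf libraries.

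The pair of short-chain network collagens split. Col8a2 had 43.5 and 72.9 in control NPCs and 20.7 and 29.9 in shSrf NPCs, log2 ratios of -1.07 and -1.29. Col8a1, with which it forms type VIII collagen, had 45.4 and 49.7 in control NPCs and 64.8 and 65.6 in shSrf NPCs, ratios of 0.51 and 0.40. The ratio of Col8a2 to Col8a1 was 0.96 and 1.47 in control NPCs and 0.32 and 0.46 in shSrf NPCs.

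Collagens that sit on the surface of fibrils (FACITs) did not move as a group. Col12a1 had 62.5 and 83.7 in control NPCs and 32.8 and 43.5 in shSrf NPCs, ratios of -0.93 and -0.94 that fell just short of 2-fold. Col16a1 had 98.0 and 91.0 in control NPCs and 120 and 118 in shSrf NPCs, ratios of 0.30 and 0.38. Col14a1 was at 1.00 and 1.28 in control NPCs and at 2.98 and 3.60 in shSrf NPCs, ratios of 1.57 and 1.49. It was above the minimum only with shSrf and so stood outside the counts. Col9a3 had 2.79 and 0.99 in control NPCs and 0.83 and 1.82 in shSrf NPCs, ratios of -1.75 and 0.88. It was lower on 12 kPa than on 0.5 kPa in control NPCs and higher in shSrf NPCs (log2 ratios of -1.50 and 1.13). It stood outside the counts because it was not above 2 in all libraries.

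Col7a1, which forms the anchoring fibrils below epithelia, had 60.3 and 46.4 in control NPCs and 31.8 and 37.6 in shSrf NPCs, ratios of -0.92 and -0.30. The transmembrane collagen Col23a1 had 7.51 and 8.21 in control NPCs and 1.70 and 2.19 in shSrf NPCs, ratios of -2.14 and -1.91, but stood outside the counts because 1 library was below 2. Col26a1 had 13.7 and 10.2 in control NPCs and 2.65 and 3.56 in shSrf NPCs, ratios of -2.37 and -1.51.

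The 20 collagens at or below 2 in every library lay between 0 and 1.45, with about 336 estimated reads in the best-counted library and none in another. They include 4 fibrillar, 3 basement membrane and 13 other collagens. Col6a4, a further type VI chain, had about 1 read in each control library and about 94 and 185 reads in the shSrf libraries at 0.5 and 12 kPa, with at most 0.409 FPKM. The FPKM ratio was 60.8 (95% exact interval 10.6 to 2425, counting error only) at 0.5 kPa and 71.6 (12.7 to 2844) at 12 kPa. Col17a1, a transmembrane collagen of hemidesmosomes, had about 10 reads in each control library and about 48 and 336 in the shSrf libraries, ratios of 3.10 (1.55 to 6.88) and 13.0 (6.99 to 27.4). Both were nearly undetected in control NPCs and stayed at or below an FPKM of 1.00 in shSrf NPCs. Among the low members with more control reads than Col6a4 and Col17a1, Col5a3, Col27a1 and Col15a1 were past 2-fold lower with shSrf at 0.5 kPa and not at 12 kPa. The share of equally low genes past 2-fold, in either direction, is not given here, so these genes are described singly. Col5a3 had 1.43 and 0.89 in control NPCs and 0.34 and 0.51 in shSrf NPCs, log2 ratios of -2.07 (counting SE 0.18) and -0.79. Col27a1 had 1.21 and 0.93 in control and 0.51 and 0.73 in shSrf NPCs, ratios of -1.25 and -0.36. Col15a1 had 1.45 and 0.49 in control and 0.48 and 0.76 in shSrf NPCs, ratios of -1.60 and 0.65, so that control NPCs at 0.5 kPa stood above the other libraries. Other low members were past 2-fold higher with shSrf at 12 kPa. Col22a1 had 0.61 and 0.087 in control and 0.46 and 0.26 in shSrf NPCs, log2 ratios of -0.40 and 1.56 (counting SE 0.36). Col9a2 had 0.56 and 0.59 in control and 0.67 and 1.19 in shSrf NPCs, ratios of 0.25 and 1.01. Col9a1, with about 1 and 3 reads in the control libraries, had FPKM ratios of 8.40 and 3.87, with 95% exact counting intervals above 1. Col6a5 was listed at 0 in control NPCs at 12 kPa and did not pass 0.0175 elsewhere.

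The matrix effect was compared next, as the ratio 12/0.5 kPa within each cell population, with 1.1-fold as the threshold. In control NPCs, 10 of the 20 collagens were lower on the stiff matrix, against 16.9% of all genes, and 3 were higher, against 17.9%. All 5 basement membrane collagens above the minimum (Col4a1, Col4a2, Col4a5, Col4a6 and Col18a1), the 3 type VI chains, Col7a1 and Col26a1 made up the lower genes. Col11a1, Col12a1 and Col8a2 were higher. In shSrf NPCs, 1 was lower (Col4a5), against 13.0% of all genes, and 10 were higher, against 17.6%, with Col1a2, Col5a2, Col11a1, Col4a2, Col12a1, Col6a2, Col6a3, Col8a2, Col7a1 and Col26a1 among them. The median log2 ratio was -0.16 in control NPCs and 0.15 in shSrf NPCs, and that of all genes lay within 0.01 of 0 in both.

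By group, the median was -0.01 in control and 0.15 in shSrf NPCs for the fibrillar, -0.27 and -0.02 for the basement membrane and -0.38 and 0.24 for the other collagens. The 2 ratios come from separate libraries, but each library also enters a comparison of shSrf with control NPCs, so a high or low value in 1 library shows in both. Most of these ratios were small. Past 1.5-fold there was, of 20, 1 lower collagen (Col6a3) and 1 higher (Col8a2) in control NPCs, against 0.963% and 0.858% of all genes. In shSrf NPCs 1 was higher (Col5a2), against 0.458%.

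**Figure D4:**
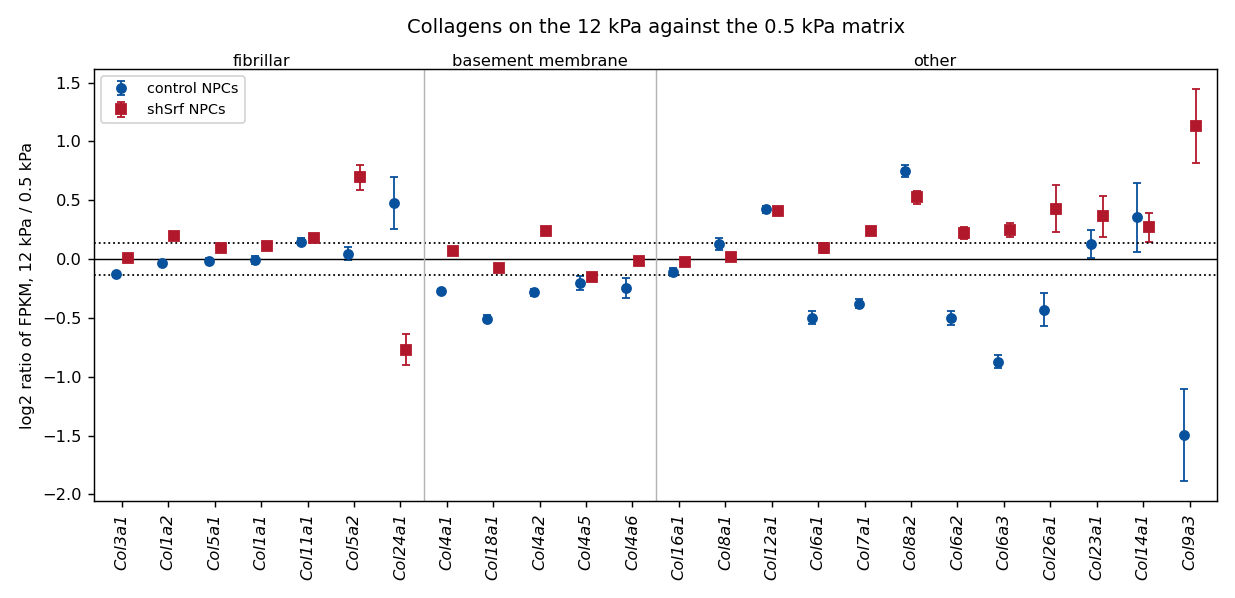
Log2 ratio of FPKM on 12 kPa against 0.5 kPa for the 24 collagen genes above an FPKM of 2 in at least 1 library, in control and in shSrf NPCs (1 library against 1 library each). Bars are 95% intervals from read counting only and dotted lines mark 1.1-fold. Of the genes above 2 in all libraries, Col4a2, Col6a2, Col6a3, Col7a1 and Col26a1 lie below the lines in control and above them in shSrf NPCs. Col9a3, which was not above 2 in all libraries, does so too (-1.50 and 1.13).

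A small set moved the same way in both populations. Col8a2 was higher on the stiff matrix with log2 ratios of 0.75 in control and 0.53 in shSrf NPCs, Col12a1 with 0.42 and 0.41, and Col11a1 with 0.15 and 0.18. These 3 of 20 stand beside 5.10% of all genes that were past 1.1-fold higher in both populations. Col4a5 alone was lower in both, at -0.20 and -0.15, where 3.24% of all genes were.

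Another 5 of the 20 collagens were lower on 12 kPa in control NPCs and higher in shSrf NPCs. Col6a3 had the widest gap of the 5, from -0.87 in control to 0.25 in shSrf NPCs. Col26a1 went from -0.43 to 0.43, Col6a2 from -0.50 to 0.22, Col7a1 from -0.38 to 0.24 and Col4a2 from -0.28 to 0.24. Opposite directions past 1.1-fold, of either kind, were thus seen in 25% of the 20 collagens and in 6.01% of all genes. The kind seen in these 5, lower in control and higher in shSrf NPCs, was found in 3.52% of all genes. Single libraries do not allow these differences to be tested. Centring each ratio among genes of like GC content was planned for single ratios and applied to opposite directions after the data were examined. With it, 3 of the 5 kept opposite directions (4.79% of all genes had them, of either kind) and Col4a2 and Col7a1 did not. In each of these 5 genes control NPCs at 0.5 kPa had the highest FPKM of the 4 libraries and shSrf NPCs at 0.5 kPa the lowest. This order, and with it a wider gap on the soft matrix, is no further observation. It follows from how the 5 were chosen and from their lower level in shSrf NPCs on both matrices. Col18a1 (-0.51 and -0.08), Col4a1 (-0.27 and 0.07), Col4a6 (-0.25 and -0.02) and Col6a1 (-0.50 and 0.09) were past the threshold in control NPCs and not in shSrf NPCs. Col5a2 was the reverse, with 0.05 in control and 0.69 in shSrf NPCs, and Col1a2 had -0.04 and 0.20. The major fibrillar genes Col3a1 (-0.13 and 0.01) and Col1a1 (-0.01 and 0.11) and the minor chain Col5a1 (-0.01 and 0.09) stayed within the threshold in both, as did Col16a1 and Col8a1.

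Lists of genes that build, bind and degrade collagen were read in the same way, with the genes above the minimum of 2 in all libraries counted. A gene that a change takes below the minimum is not in these counts. Collagen chains are hydroxylated on proline and lysine, folded and exported from the endoplasmic reticulum, trimmed at their ends and crosslinked outside the cell. Of 14 counted genes of proline and lysine modification and 11 of folding and secretion, none was past 2-fold at both stiffnesses in shSrf NPCs. Across all genes 1.71% were lower and 1.74% higher, so counts of 0 in lists of this size are near that share. Plod1, a modification gene, was past 2-fold lower at 0.5 kPa only, with log2 ratios of -1.23 and -0.98. Median log2 ratios were -0.33 and -0.35 for the first list and 0.04 and 0.06 for the second. The chaperone Serpinh1 (Hsp47), for example, had 646 and 657 in control and 743 and 736 in shSrf NPCs. Of 8 listed genes of propeptide processing, 4 were above the minimum and none of them was past 2-fold (medians 0.21 and 0.37), again near the share of all genes. Among those outside the count, Tll1, a relative of the protease that trims fibrillar procollagen, had 5.98 and 8.50 in control NPCs and 0.92 and 1.30 in shSrf NPCs, ratios of -2.70 and -2.70.

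Crosslinking enzymes moved in opposite directions. Lox, which oxidises lysines of fibrillar collagen and elastin for crosslinking, had 13.5 and 19.6 FPKM in control NPCs and 75.6 and 92.6 in shSrf NPCs, log2 ratios of 2.49 and 2.24. Its relative Loxl2, which also crosslinks type IV collagen, had 78.5 and 70.9 in control NPCs and 22.4 and 22.9 in shSrf NPCs, ratios of -1.81 and -1.63. Loxl3 had 12.8 and 16.4 in control NPCs and 4.74 and 5.97 in shSrf NPCs, ratios of -1.44 and -1.46. These were 2 lower and 1 higher of 6 counted, beside the 1.71% and 1.74% of all genes past 2-fold at both stiffnesses.

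Of 7 counted fibril regulators, 1 was lower and 2 were higher at both stiffnesses (1.71% and 1.74% of all genes). Postn, a matricellular protein that binds collagen and also stands among the mesenchymal markers, had 188 and 259 in control NPCs and 30.2 and 36.8 in shSrf NPCs, ratios of -2.64 and -2.82. Dcn, a small proteoglycan on fibrils and likewise one of those markers, had 9.22 and 8.62 in control and 26.9 and 26.2 in shSrf NPCs, ratios of 1.54 and 1.60. Thbs2 had 30.1 and 22.6 in control and 62.2 and 58.0 in shSrf NPCs, ratios of 1.05 and 1.36. Lum, a proteoglycan and marker of the same kinds that was above 2 only with shSrf, had 1.36 and 1.22 in control and 3.28 and 3.38 in shSrf NPCs, ratios of 1.27 and 1.48. The markers of mesenchymal cells thus did not move together, with Postn lower and Dcn and Lum higher in shSrf NPCs.

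Of 13 counted partners of the basement membrane, 1 was lower and 1 higher at both stiffnesses (1.71% and 1.74% of all genes), both of them laminin alpha chains. Lama4 had 55.3 and 62.2 in control and 16.6 and 16.9 in shSrf NPCs, ratios of -1.73 and -1.88. Lama5 had 33.5 and 24.2 in control and 77.0 and 79.4 in shSrf NPCs, ratios of 1.1996 and 1.71. The list's medians were -0.31 and -0.04, and type IV collagen and laminin alpha chains each had genes on both sides. In the ratio 12/0.5 kPa of control NPCs, 6 of the 13 partners were past 1.1-fold lower and 2 higher (16.9% and 17.9% of all genes), and in shSrf NPCs 2 were lower and 3 higher (13.0% and 17.6% of all genes), counts near the shares of all genes except for the lower ones in control NPCs. The perlecan gene Hspg2, a proteoglycan of basement membranes, had 93.4 and 74.9 in control NPCs and 75.2 and 77.1 in shSrf NPCs, with stiffness ratios of -0.32 and 0.04.

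Among 7 counted collagen receptors, Itga1, the integrin chain that binds type IV collagen, was lower at both stiffnesses. It had 10.2 and 12.1 in control and 2.73 and 2.57 in shSrf NPCs, with ratios of -1.902 and -2.24. No other counted receptor was past 2-fold at both stiffnesses, where 1.71% of all genes were lower and 1.74% higher. At 12 kPa 2 of the 7 were lower and 1 higher (2.22% and 2.74% of all genes). Adgrg6, a receptor for type IV collagen outside the count, had 6.55 and 6.95 in control and 1.92 and 2.64 in shSrf NPCs, ratios of -1.77 and -1.39. Of 9 counted genes of collagen degradation, 4 were past 2-fold lower at 0.5 kPa and none at 12 kPa (2.86% and 2.22% of all genes). These were, with log2 ratios at 0.5 and 12 kPa, the gelatinase Mmp9 (-1.53 and -0.25), the membrane-bound collagenase Mmp14 (-1.03 and -0.79), Mmp16 (-1.02 and -0.92) and the inhibitor Timp3 (-1.29 and -0.996), so that most of them lay near the threshold on both matrices.

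The promoters were searched for short motifs in windows of 300 bases around each start (250 before and 50 after it) from RefSeq on GRCm38. Windows were held for 35 of the 44 collagens (38 windows). No window was held for Col1a1, Col2a1, Col5a2, Col4a3, Col9a3, Col12a1, Col14a1, Col22a1 and Col26a1. The CArG box, the sequence that Srf binds, was found in 1 collagen window, that of Col6a4, and in 1.63% of all 32851 windows. TATAAA was found in 5 collagen windows, Col3a1 among them, and in 13.6% of all windows. CCAAT was found in 13 collagen windows and in 37.4% of all windows, and GGGCGG in 23 collagen windows (60.5%) and in 35.7% of all. All motifs were searched on both strands, and a match is a description of the letters and not of a bound site.

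Stretches of 2 windows are shown because Col3a1 had the highest level of all collagens and Col6a4 held the CArG box. Matches are in capitals. In Col3a1 they mark TATAAA, and in Col6a4, in order, CCAAT, the CArG box and GGGCGG read on the opposite strand. The Col3a1 stretch is the 250 bases before the start on the + strand at chr1:45311288-45311537, and that of Col6a4 the 113 bases of its window before the annotated gene span on the - strand at chr9:106096829-106096941.
Col3a1: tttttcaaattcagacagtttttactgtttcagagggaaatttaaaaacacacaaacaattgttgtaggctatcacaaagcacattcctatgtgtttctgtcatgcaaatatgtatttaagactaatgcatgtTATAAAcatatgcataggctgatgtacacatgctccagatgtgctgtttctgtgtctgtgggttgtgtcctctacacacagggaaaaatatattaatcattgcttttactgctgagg
Col6a4: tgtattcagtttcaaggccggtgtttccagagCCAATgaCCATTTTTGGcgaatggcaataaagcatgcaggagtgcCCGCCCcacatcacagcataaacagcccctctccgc

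The transcripts of the 20 collagens above the minimum were richer in G and C than those of all genes (median 56.4% against 50.3%). With each ratio centred among genes of like GC content, Col6a3 at 12 kPa (-1.01) and Col7a1 at 0.5 kPa (-1.13) joined the genes past 2-fold lower in shSrf NPCs. In the stiffness ratio of shSrf NPCs, Col4a2 and Col7a1 (both 0.13) left the higher genes and Col18a1 (-0.16) joined the lower ones. Of the single-gene ratios, 56 moved by more than their 95% counting interval and 24 did not. Ratios in shSrf against control NPCs at 0.5 and 12 kPa came to 0.09 and 0.01 for Col16a1 and to 0.18 and 0.19 for Col1a1, and that of Col6a1 at 12 kPa turned from 0.05 to -0.14.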

How the data were processed

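The authors trimmed single-end reads with cutadapt, mapped them to mm10 (GENCODE M14) and kept reads with a mapping quality of at least 20. The submitters' processing notes name cutadapt 1.9.1, TopHat2 2.1.0, Bowtie2 2.2.8 and Cufflinks 2.2.1. The deposited values are FPKM per gene symbol, which the study's methods call RPKM, and were used without rescaling. The 63 symbols listed more than once (135 of 21997 rows) were left out. Genes above an FPKM of 2 in all 4 libraries were included, and 1.1-fold was the threshold for 12/0.5 kPa, both as in the study's methods. The threshold of 2-fold for shSrf against control was set here. Log2 ratios used no pseudocount.

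The members and lists were chosen with earlier results of these data known. Every collagen above 2 in at least 1 library is named, and so are pathway genes above 2 in at least 1 library and past 2-fold in 1 direction on both matrices. Serpinh1, Plod1, Hspg2, Mmp9, Mmp14, Mmp16 and Timp3, and the low collagens Col9a1, Col9a2 and Col22a1, were named after their values were seen.

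The depth estimate used 1330 genes with low values (FPKM under 0.1) in at least 3 libraries, of which 38.9% fell on whole-read steps (within 0.05 reads), and from 134 single-transcript genes. Estimated reads and GC content used GENCODE M1 transcripts, matched by symbol for 98.4% of included genes, and are approximate. They cover counting error only. Calculations were tested on simulated data. Alternatives were other minima, pseudocounts, scalings, GC centring and thresholds. Python 3.11.15, numpy 2.4.6, pandas 2.3.3 and matplotlib 3.10.9 were used.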

Additional observations from a re-analysis of the deposited data

Results flagged for a closer look

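In 5 of the 20 collagens above the minimum in all libraries, the ratio 12/0.5 kPa was past 1.1-fold lower in control NPCs and past it higher in shSrf NPCs. The difference of the log2 ratios, control minus shSrf NPCs, was -1.12 for Col6a3, -0.86 for Col26a1, -0.72 for Col6a2, -0.62 for Col7a1 and -0.53 for Col4a2. With 1 library for each condition these differences were not tested. GC centring was planned for single ratios and applied to opposite directions after the data were examined. With it, Col4a2 and Col7a1 (both 0.13 in shSrf NPCs) no longer passed 1.1-fold and 3 of the 5 remained. All of them draw on the same 4 libraries.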

How the results depend on the processing

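No paired analysis was possible because there is only 1 library of every condition. No ratio past its threshold changed sign under the alternatives run. Of ratios within it, GC centring turned Col1a1 (0.02), Col5a1 (0.03) and the fibrillar median (0.03) in control NPCs for 12/0.5 kPa, and Col6a1 (-0.14) for shSrf against control at 12 kPa. Col3a1 for 12/0.5 kPa in shSrf NPCs turned to -0.0095 with GC centring and to -0.00015 with scaling to the 75th percentile. Scaling to the 75th percentile, centring on the median, a pseudocount of 1 with the minimum kept, and a minimum of 5 moved no count by over 1.5 times and no group median by 1.1-fold or more, although a minimum of 5 took the median of the other collagens in control NPCs for 12/0.5 kPa to -0.24. For 12/0.5 kPa in control NPCs, 5 collagens were higher with a minimum of 1 or with a minimum of 2 in any library. With no minimum and a pseudocount of 1, 16 were lower and 7 higher. At 1.5-fold 1 was lower and 1 higher, and at 2-fold 0 in each direction. The median of the other collagens was -0.11 with a minimum of 1. In shSrf NPCs, 2 of 23 were lower with a minimum of 1 (13.6% of all genes). With a minimum of 2 in any library 2 of 24 were (13.8%), and with GC centring 2 of 20 (12.3%). With no minimum, 3 of 44 were lower and 19 higher (8.23% and 12.2%). At 1.2-fold 0 of 20 were lower and 4 higher (3.14% and 5.99%), and at 1.5-fold 0 and 1 (0.324% and 0.458%). At 2-fold there were 0 in each direction (0.0286% and 0.0572%). For shSrf against control at 0.5 kPa, 4 of 23 were higher with a minimum of 1 (3.2% of all genes). With a minimum of 2 in any library 4 of 24 were (4.37%). At 1.1-fold 14 of 20 were lower and 5 higher (35.7% and 37.4%), and at 3-fold 1 was higher (0.62%). At 12 kPa, 12 of 20 were lower and 6 higher at 1.1-fold (35.9% and 37.6%). At 3-fold 2 were lower and 1 higher there (0.505% and 0.648%). GC centring, planned for the counts and chosen for the medians after the data were examined, gave medians of -1.93 for the basement membrane and -1.13 for the other collagens at 0.5 kPa, and -1.62 and -0.67 at 12 kPa. Other minima and thresholds include different genes by construction. For the effect of GC centring the cause was not tested. Depth limits the ratios of low collagens such as Col6a4 with about 1 read in a control library, and culture-to-culture variation could not be estimated.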
